A study of Mus musculus with 4 samples.

Results

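Gene expression in mouse heads at E12.5 (E for embryonic day) was set against that in whole embryos at E11.5, across 18193 genes read by 4 Affymetrix GeneChip Mouse Genome 430 2.0 arrays. Each stage had 1 wild-type and 1 *Hand2*NC array. *Hand2*NC embryos (*Hand2* CAT/+; *Wnt1-Cre*) carry a transgene in which a ubiquitous promoter drives *Hand2* once the Cre recombinase, made in the neural crest lineage under *Wnt1* control, has removed a floxed CAT gene; all embryos were of a mixed C57BL/6J x ICR background. The 4 groups were therefore wild-type whole-body at E11.5, *Hand2*NC whole-body at E11.5, wild-type head at E12.5 and *Hand2*NC head at E12.5. RNA was pooled before analysis, so that 1 array stood for each group. Genes were described when they differed at least 2-fold between E12.5 head and E11.5 whole-body in the wild-type pair of arrays and, in the same direction, in the *Hand2*NC pair. This held for 1114 of the 18193 genes (6.12%), 514 higher and 600 lower in the E12.5 head. A day of development and the absence of the body separate the groups together, and the contribution of stage and that of tissue cannot be told apart. The difference in amount between groups also mixes cell number and RNA per cell: in pooled tissue, fewer cells of a type and less RNA per cell cannot be told apart.

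Around these stages the mouse embryo has a beating heart, a liver primordium that secretes plasma proteins and takes over the production of red blood cells from the yolk sac, limb buds and a segmented trunk. *Hox* genes are arranged in clusters whose order along the chromosome follows the order in which the genes are expressed along the body: those of low paralogue number reach into the hindbrain, and those of high number mark the trunk, tail and limbs. In the head, the first neurons of the cerebral cortex and basal forebrain leave the cell cycle, the lens vesicle fills with fibre cells packed with crystallins, and neural crest cells build the jaw primordia. A head dissected cleanly from the body would thus keep brain, eye, face and circulating blood, and lack heart, liver, trunk and limbs. The labels give only head, and not where the cut was made.

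The values are signals from the MAS5 algorithm on a linear scale, scaled here to the same trimmed mean on every array, and ratios are given as log2 of E12.5 head over E11.5 whole-body, so that positive values are higher in the head. The arrays were alike in their distributions, with median signals between 97.2 and 106 and highest signals between 33230 and 37842. The 3' probe set's signal over that of the 5' probe set, a measure of RNA integrity, ran from 1.36 to 1.48 for *Actb* and from 0.804 to 0.890 for *Gapdh*, and for both genes it was lower in the head arrays than in the whole-body arrays; its part in the results was not tested. Among Y-linked genes, *Uty*, *Kdm5d* and *Eif2s3y* had signals between 315 and 956 on 3 arrays and of at most 14.4 on the *Hand2*NC head array, where they lay among the dim genes. These 3 genes differed in the *Hand2*NC pair alone and are not among the 1114. *Xist*, an X-linked gene read as a check, was brightest on the *Hand2*NC head array, at 16187. It had 8988 in wild-type heads, and 11947 in wild-type and 10567 in *Hand2*NC whole embryos. Whether the pools differed in the sex of their embryos was not tested.

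The 514 higher genes were 2.83% of all genes measured, and the 600 lower genes 3.3%. Dim genes supplied many of them: 685 of the 1114 had a brighter stage that did not reach the array median on both of its arrays, and 513 other genes changed 2-fold in opposite directions in the 2 genotypes. Among the 11737 genes whose brighter stage reached the array median on both arrays, called here genes above the signal filter, 0 changed 2-fold in opposite directions. Of these, 226 (1.93%) were higher and 203 (1.73%) lower in both genotypes. The median log2 ratio of genes above the filter was 0.03, and 80.7% of them lay within 0.5 of 0. The ratios of the 2 genotypes differed by a median of 0.16 on the log2 scale. Above the filter, the 429 genes make up 55.9% of the 767 genes that differed 2-fold in the wild-type pair and 75% of the 572 that did so in the *Hand2*NC pair.

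**Figure D1:**
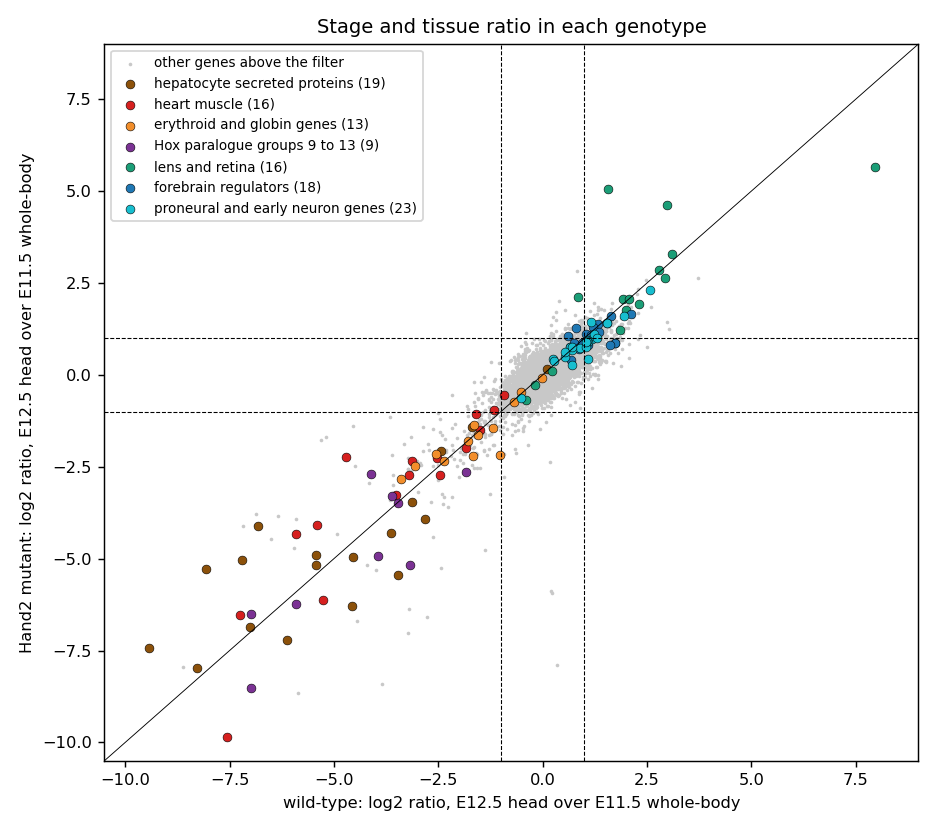
Log2 ratio of E12.5 head over E11.5 whole-body in the *Hand2*NC pair of arrays (vertical) against the wild-type pair (horizontal), 1 point per gene above the signal filter; coloured points are genes of 7 lists, dashed lines mark 2-fold and the solid line marks equal ratios. Liver, heart, erythroid and posterior *Hox* genes lie at the lower left, down to -9.86 for *Myl2*, and lens, forebrain and neuronal genes at the upper right; 3 grey points near 0 on the horizontal axis and below -5 on the vertical axis are Y-linked genes.

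The differences were not of equal size in the 2 directions. At least 4-fold, 11 genes above the filter were higher and 94 lower in the head, and at least 8-fold the counts were 2 and 44. For 149 of the 203 lower genes 1 or both head signals lay below the array median, and for 65 of the 226 higher genes 1 or both whole-body signals did. MAS5 signals below the median vary widely from array to array, so the size of a difference that ends there is uncertain. The log2 ratio with every signal below its array's median raised to that median is therefore given beside most of the largest ones, as the ratio from raised signals.

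As a test of each gene against the disagreement between the genotypes, limma was fitted with stage and genotype as terms, which leaves 1 residual degree of freedom per gene and takes most of its estimate of spread from genes of like signal. By this test 2146 genes (11.8%) were higher and 1720 (9.45%) lower in the head at an adjusted p below 0.05, and the calls included 592 of the 1114 genes. The 2-fold rule and limma used the same 4 values, so this share is no independent support for the members. Where stages are said below not to overlap, the genes were mostly chosen by these same values. Such statements describe the signals and are no support either. The calls rest on the borrowed spread: fitted without a trend of spread on signal, limma called 0 genes, with 3031 at an unadjusted p below 0.05. The borrowed spread also called *Uty*, with an adjusted p of 0.0198, although its log2 ratio was 0.35 in the wild-type pair and -7.89 in the *Hand2*NC pair. Standard errors given below are those of limma, over 2 arrays per stage.

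Proteins that the liver secretes into plasma were the group with the lowest ratios. Of 19 measured genes of this list, 17 were lower in the head in both genotypes and none was higher, with a median log2 ratio of -5.17 against 0.02 over all genes; the median from raised signals was -2.24. All 19 lay above the filter, and limma called 17 lower and 1 higher. The label of the E11.5 RNA as whole-body is borne out by these signals, although the legend for the corresponding arrays in the study speaks of heads.

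*Afp* encodes alpha-fetoprotein, the main plasma protein of the fetus. Its signal was 17146 in wild-type and 18323 in *Hand2*NC whole embryos, and 133 and 158 in the heads. The 2 whole-body arrays lay far above the 2 head arrays, by a log2 ratio of -6.93 ± 0.09 (SE), a difference of 122-fold (limma adjusted p = 1.42e-17). The 4 other probe sets for *Afp* were all lower in the head, with log2 ratios from -2.42 to -9.32.

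*Alb*, which encodes serum albumin, had signals of 9010 and 8530 in whole embryos and of 29.1 and 33.7 in heads, a log2 ratio of -8.13 ± 0.13 and of -6.40 from raised signals. *Alb*, *Afp* and *Afm*, another member of the albumin family, are neighbours on the chromosome, and all were lower. The apolipoprotein genes *Apoa2* (2229 and 2101 in whole embryos, 51.7 and 58.0 in heads) and *Apoa1* (1607 and 1547, 37.0 and 51.6) had log2 ratios of -5.30 and -5.17, or -4.38 and -3.93 from raised signals. For *Alb* and both apolipoprotein genes the stages did not overlap, and the head signals lay below the array medians.

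The retinol carrier gene *Rbp4* had signals of 1713 and 1670 in whole embryos and 73.7 and 54.1 in heads. *Serpina1b*, a protease inhibitor gene of the alpha-1-antitrypsin family, had 1569 and 1220 against 2.26 and 7.10, and *Serpina6*, which encodes the plasma carrier of glucocorticoids, had 1237 and 1140 against 3.17 and 4.63. *Ambp* and *Itih2*, which encode parts of the inter-alpha-trypsin inhibitor complex, had log2 ratios of -6.68 ± 0.34 and -6.12 ± 0.40. From raised signals these 5 genes had log2 ratios from -4.03 (*Rbp4*) to -3.18 (*Itih2*), so that their order depends on how the dim head signals are read.

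Of the list, 2 genes were within the cutoff. *Ttr*, which encodes the thyroxine carrier transthyretin and is made by liver, yolk sac and the choroid plexus of the brain, was brighter in the head: its signals were 9223 and 7901 in whole embryos and 17721 and 14209 in heads, a log2 ratio of 0.89 ± 0.09 (limma adjusted p = 1.77e-06). *Vtn*, the vitronectin gene, had signals of 982 and 910 in whole embryos and 1057 and 1009 in heads, a difference of 0.13 ± 0.10 that did not pass the test (adjusted p = 0.407).

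Of 14 regulators and intracellular enzymes of liver 0 passed the cutoff in both genotypes, with a median of 0.05; 5 of the 14 lay above the filter, and limma called 1 higher (*Foxa1*) and 1 lower (*Arg1*). The difference from the secreted proteins was not tested. *Foxa1*, a pioneer factor of endoderm that is also expressed in the ventral neural tube, had signals of 336 and 297 in whole embryos and 459 and 557 in heads, a log2 ratio of 0.68 ± 0.15. *Dlk1*, a marker of hepatoblasts and of many other embryonic cells, had a log2 ratio of -0.01 ± 0.10. *Arg1*, the urea cycle enzyme arginase, had signals of 154 and 146 in whole embryos and 96.5 and 50.3 in heads, with ratios of -0.67 in the wild-type and -1.54 in the *Hand2*NC pair (limma adjusted p = 0.0226). *Foxa3*, an endoderm factor below the filter, had ratios of -0.80 and -1.36 (adjusted p = 0.12).

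The bases before the start sites of *Alb* and *Afp* are shown because these genes had the brightest whole-body signals among the liver genes that were lower. Sequences are from RefSeq (GRCm38.p6), 250 bases up to the start, on the strand of the gene; *Alb* at chr5:90460620-90460869 and *Afp* at chr5:90490464-90490713, both on the plus strand. Capitals mark GTTAAT, a half-site of the liver factor HNF1, which begins 32 bases before the annotated start in *Alb* and 105 bases before it in *Afp*.
Alb: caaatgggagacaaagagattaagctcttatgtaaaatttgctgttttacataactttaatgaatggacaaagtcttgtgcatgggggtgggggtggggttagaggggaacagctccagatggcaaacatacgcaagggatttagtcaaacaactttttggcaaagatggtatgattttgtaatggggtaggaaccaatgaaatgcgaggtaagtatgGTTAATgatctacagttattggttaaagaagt
Afp: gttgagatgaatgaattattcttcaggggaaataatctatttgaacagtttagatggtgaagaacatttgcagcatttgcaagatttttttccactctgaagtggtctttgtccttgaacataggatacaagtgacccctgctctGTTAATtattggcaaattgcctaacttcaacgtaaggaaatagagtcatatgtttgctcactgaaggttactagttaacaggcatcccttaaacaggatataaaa
Searched on both strands from 250 bases before to 50 bases after the start, GTTAAT was in 7 of 17 promoters of the secreted liver proteins that the RefSeq table holds (41.2%), in 6.27% of the promoters of genes on the arrays and in 8.24% of all 27025 promoters. The match to letters is a description of these windows and not evidence of binding.

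Genes of heart muscle were likewise lower. Of 20 measured, 14 were lower in the head in both genotypes and none was higher, with a median log2 ratio of -2.50, or -1.69 from raised signals; limma called 16 lower. *Myl2*, the ventricular myosin regulatory light chain, had signals of 3739 and 3646 in whole embryos and of 19.9 and 3.93 in heads, and a log2 ratio of -8.70 ± 0.36, or -5.15 from raised signals. *Myl7*, the atrial light chain, had 2201 and 2329 against 14.3 and 25.1, a log2 ratio of -6.90 ± 0.22, or -4.45 from raised signals. In the head both light chains lay far below the array medians.

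*Nppa*, which encodes atrial natriuretic peptide, had signals of 1119 and 1128 in whole embryos and 18.8 and 56.2 in heads, with -3.44 from raised signals. *Myh6*, the atrial myosin heavy chain, had a log2 ratio of -5.70 ± 0.29 and *Myl3*, a light chain of ventricle and slow muscle, one of -4.74 ± 0.29; from raised signals these were -3.14 and -2.91. Of the list, 6 genes were within the cutoff. *Actc1*, the cardiac actin gene, which embryonic skeletal muscle expresses as well, had signals of 9362 and 9367 in whole embryos and 4155 and 4841 in heads, and its log2 ratio was -1.17 in the wild-type and -0.95 in the *Hand2*NC pair. Of the heart regulators in the list, *Tbx20* lay above the filter and was lower, with 166 and 226 in whole embryos, 59.0 and 80.1 in heads and a log2 ratio of -1.49 in both pairs (limma adjusted p = 0.0013). *Nkx2-5*, *Gata4* and *Hand1* lay below the filter and within the cutoff.

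*Hand2* itself, which is expressed in heart, limb buds, sympathetic neurons and the lower jaw primordium, was read by 3 probe sets. The brightest had signals of 1214 and 1244 in whole embryos and 592 and 839 in heads, with a log2 ratio of -1.04 in the wild-type pair and -0.57 in the *Hand2*NC pair. The second went from 67.1 to 33.4 in the wild-type pair and from 314 to 706 in the *Hand2*NC pair, and so ran in opposite directions in the genotypes. *Hand2* was therefore not among the 1114 genes.

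**Figure D2:**
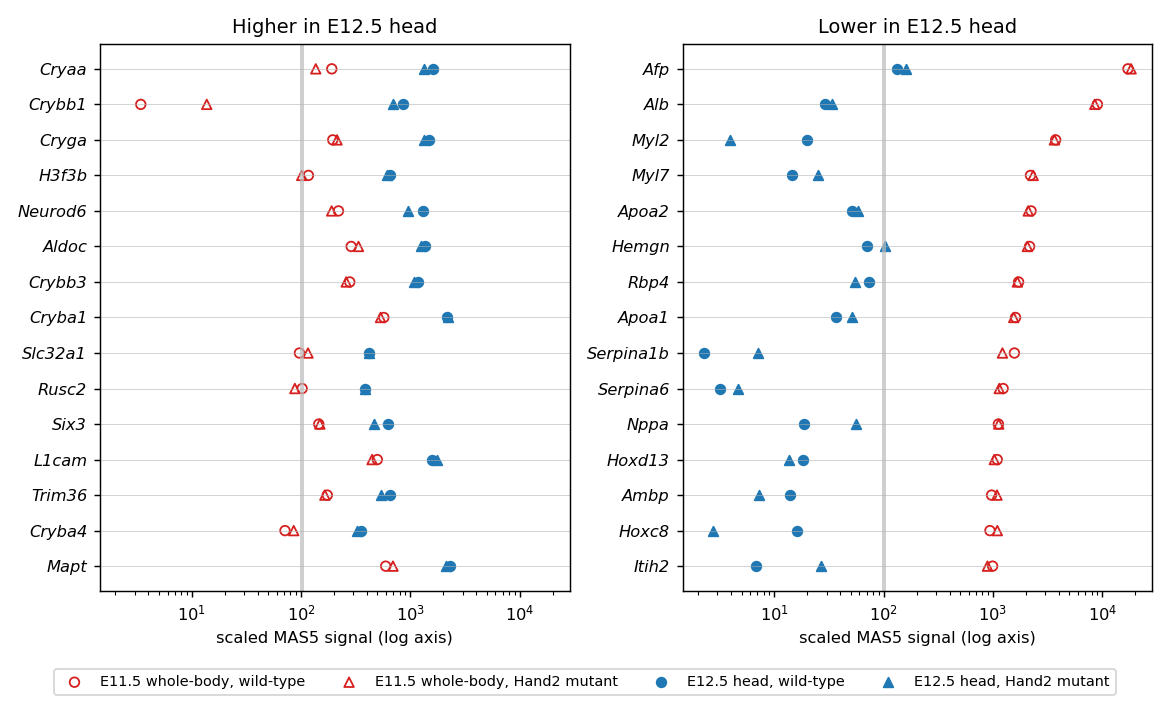
Scaled MAS5 signal on each of the 4 arrays (log axis) for the 15 genes higher (left) and the 15 lower (right) with the largest ratios from raised signals; the grey band spans the array medians. Open symbols are whole-body arrays at E11.5 and filled symbols head arrays at E12.5. In every row the stages do not overlap, which follows largely from choosing the genes by this ratio. Most head signals on the right lie under the band, whereas most whole-body signals on the left lie on or above it.

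The *Hox* genes were ordered by paralogue group. In groups 1 to 4, 0 of 10 measured genes passed the cutoff in both genotypes, with a median log2 ratio of -0.20. In groups 5 to 8, 6 of 9 were lower with a median of -1.40, and in groups 9 to 13, 13 of 14 were lower with a median of -3.48. From raised signals the medians of these 2 ranges were -1.06 and -1.42, and 8 of the 9 and 9 of the 14 genes lay above the filter. None was higher. The medians of the single groups ran from 0.11 (group 1) and 0.14 (group 2) through -0.76 (group 4), -0.95 (group 5) and -1.27 (group 6) to -2.48 (group 7), and lay between -2.53 and -6.74 from group 8 on, with 1 to 4 genes in each.

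*Hoxb3*, whose domain reaches the hindbrain, had signals of 1443 and 1903 in whole embryos and 1307 and 1639 in heads, and a log2 ratio of -0.18 ± 0.09 (limma adjusted p = 0.171). *Hoxc5*, expressed from the neck backwards, had 1258 and 1305 against 247 and 387, a log2 ratio of -2.05 ± 0.14. *Hoxc8*, a gene of the thorax, had 937 and 1094 against 16.2 and 2.73, with -3.29 from raised signals. Its ratio was -5.85 in the wild-type and -8.64 in the *Hand2*NC pair.

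*Hoxd13*, which patterns the digits and the genital region, had signals of 1092 and 1027 in whole embryos and 18.1 and 13.7 in heads, a log2 ratio of -6.07 ± 0.27, or -3.35 from raised signals. *Hoxa10*, a gene of the lumbar region and limb, had 740 and 775 against 5.87 and 8.48, a log2 ratio of -6.74 and of -2.87 from raised signals. *Hoxd10*, of the same region, had 446 and 514 against 3.51 and 1.39, with -7.76 and -2.21, so that the order of these 2 genes depends on how the dim head signals are read. *Hoxb5* stood apart from its neighbours in group 5: it had 394 and 337 in whole embryos and 303 and 547 in heads, and its ratio was -0.38 in the wild-type and 0.70 in the *Hand2*NC pair. *Hoxb6*, at -1.17 and -1.0046, was, among genes above the filter, the lower one nearest the cutoff on its inner side, and *Bnc1*, at -1.18 and -0.99, lay just outside.

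**Figure D3:**
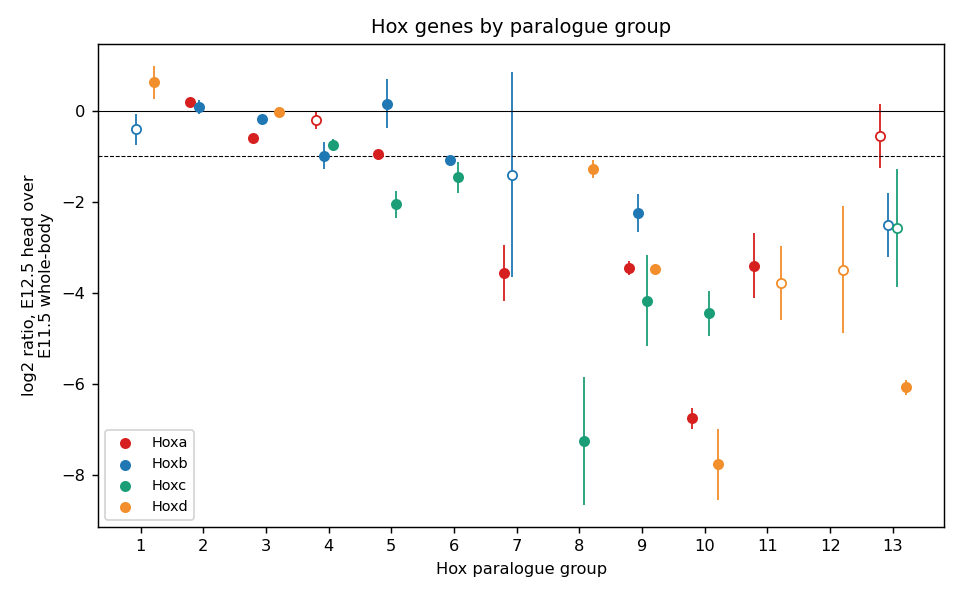
Log2 ratio of E12.5 head over E11.5 whole-body for 33 *Hox* genes by paralogue group, coloured by cluster; points are the ratio of stage means, lines join the wild-type and *Hand2*NC ratios, open points are genes below the signal filter and the dashed line marks 2-fold lower. Genes of groups 1 to 3 lie within 1 of 0 and those of groups 8 to 13, except *Hoxa13*, lie below the dashed line.

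Markers of other organs of the trunk were lower in part. In the limb bud list 4 of 16 genes were lower, among them *Tbx4*, which specifies the hindlimb (284 and 304 in whole embryos, 84.5 and 81.4 in heads), and *Tbx5*, which acts in forelimb and heart (182 and 299, 69.4 and 11.0). The other 2, *Hoxd12* (below the filter) and *Hoxd13*, are also counted among the *Hox* genes. The median of the limb list was 0.02, and limma called 3 higher and 5 lower. The brightest limb genes within the cutoff are also genes of the face: *Prrx1*, a mesenchymal homeobox gene, had a log2 ratio of 0.19 ± 0.08 and *Shox2* one of 0.10 ± 0.08. Of the gut, lung and pancreas genes 4 of 20 were lower, and of these only *Gata6*, an endoderm and heart factor, was above the filter, with 670 and 713 in whole embryos and 82.6 and 142 in heads. *Shh*, made by gut endoderm and by the floor plate of the brain, had a log2 ratio of 0.14 ± 0.10.

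In the kidney and urogenital list 4 of 17 genes were lower, including *Wt1*, a factor of kidney, gonad and body-cavity lining, at 224 and 244 in whole embryos and 25.0 and 75.2 in heads. The others were *Hoxa11* and *Hoxd11*, also counted among the *Hox* genes, and *Cdh16*, and of these *Hoxd11* and *Cdh16* lay below the filter. The median was -0.10, and limma called 4 higher and 5 lower. *Osr1*, a factor of nephric mesoderm and also of the palate, was higher in the head by 0.66 ± 0.10, within the cutoff. Of the germ cell list 1 of 12 genes was lower (*Mael*) and of the somite list 1 of 14 (*Nkx3-2*); both lay below the filter. In the list of spinal cord and peripheral trunk neurons 1 of 15 was higher and 1 lower, *Slc18a3* and *Mnx1*, again below the filter.

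Of 14 erythroid and globin genes 10 were lower in the head in both genotypes and none was higher, with a median of -1.60, or -1.43 from raised signals. *Klf1*, the transcription factor that drives late red cell genes, had signals of 1142 and 1032 in whole embryos and 108 and 144 in heads, a log2 ratio of -3.12 ± 0.16 (limma adjusted p = 1.35e-09). *Hemgn*, a nuclear protein gene of red cell precursors, had 2160 and 2063 against 70.7 and 103. *Ermap* and *Rhag*, both genes of red cell membrane proteins, had log2 ratios of -2.35 ± 0.13 and -2.76 ± 0.24.

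Among the embryonic globins, which primitive red cells in the circulation carry, *Hba-x* and *Hbb-y* differed less than the list median of -1.60, and *Hbb-bh1* lay near it. *Hbb-bh1* had signals of 25003 and 22188 in whole embryos and 8056 and 8573 in heads, a log2 ratio of -1.50. *Hba-x* had 23727 and 20936 against 16433 and 15136, a ratio of -0.50 ± 0.09, and *Hbb-y* had 31025 and 29545 against 30503 and 28059, a ratio of -0.05 ± 0.10. The signals of *Hbb-y* were near the highest on each array, and whether they were saturated was not tested.

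In the macrophage and myeloid list limma called 2 of 20 genes higher and 6 lower, and the median was -0.20. Past the cutoff in both genotypes were 5 genes, all lower. These 5 are described by cell type after their values were seen, and no difference between the cell types was tested. *Ppbp*, which encodes a chemokine of platelets, had signals of 1339 and 1531 in whole embryos and 209 and 140 in heads, and *Pf4*, platelet factor 4, had 3072 and 3190 against 775 and 742, a log2 ratio of -2.04 ± 0.09. The granulocyte genes *S100a8* (1007 and 913 against 177 and 448), *S100a9* and *Mpo* completed the 5. *Csf1r*, the receptor that macrophages need, had 1674 and 1603 in whole embryos and 1817 and 1935 in heads, a ratio of 0.19 ± 0.09 that did not pass the test (adjusted p = 0.133). *F13a1*, of the same list, was higher within the cutoff, with 604 and 616 in whole embryos and 916 and 866 in heads. Its ratio was 0.55 ± 0.11 (limma adjusted p = 0.0016). In the endothelial list 0 of 18 genes passed the cutoff and the median was 0.01, and *Kdr*, a receptor for vascular endothelial growth factor, had a ratio of 0.00 ± 0.11.

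Among 14 yolk sac and extraembryonic genes 4 were lower, 1 of them the *Rbp4* gene already given, and *Rhox5*, *Spink1* and *Rhox9* had signals of at most 173 on any array. *Plac1*, a placental gene, was within the cutoff.

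On the other side of the comparison, lens crystallins had the largest ratios. Of 20 lens and retina genes 11 were higher in the head in both genotypes and none was lower, with a median log2 ratio of 1.70, or 1.11 from raised signals. Limma called 13 higher and 1 lower. *Cryaa*, which encodes alpha-A crystallin, had signals of 191 and 136 in whole embryos and 1625 and 1329 in heads, a log2 ratio of 3.19 ± 0.13 (limma adjusted p = 9.485e-11). The E12.5 heads were 9.11-fold above the whole embryos, with no overlap.

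The beta crystallins *Crybb1* (3.42 and 13.7 in whole embryos, 854 and 687 in heads), *Crybb3* (279 and 259, 1169 and 1082), *Cryba1* (571 and 533, 2158 and 2227) and *Cryba4* (71.2 and 85.6, 353 and 327) were each higher. For *Crybb1* the log2 ratio of 6.81 ± 0.47 started from very dim whole-body signals and came to 2.95 from raised ones. *Cryga*, a gamma crystallin of fibre cells, had 195 and 213 against 1489 and 1328, a ratio of 2.79 ± 0.13. *Cryab*, alpha-B crystallin, which heart and muscle also make, ran the other way with 702 and 727 in whole embryos and 528 and 452 in heads, a ratio of -0.55 ± 0.12 within the cutoff. *Prox1*, a factor of lens fibres, liver and lymphatic vessels, had 0.16 ± 0.18.

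Promoters of 3 crystallins are shown because these genes had the largest ratio from raised signals (*Cryaa*, *Crybb1*) or are neighbours on the chromosome (*Cryba4*, *Crybb1*). They are the 250 bases up to the RefSeq start in GRCm38.p6, on the strand of the gene: *Cryaa* at chr17:31677681-31677930 (plus), *Crybb1* at chr5:112255570-112255819 (plus) and *Cryba4* at chr5:112252519-112252768 (minus). Capitals mark TGCTGA, the core of the half-site bound by Maf proteins such as c-Maf, a lens fibre factor. It begins 108 bases before the start in *Cryaa*, 84 in *Crybb1*, and 182, 135 and 77 in *Cryba4*.
Cryaa: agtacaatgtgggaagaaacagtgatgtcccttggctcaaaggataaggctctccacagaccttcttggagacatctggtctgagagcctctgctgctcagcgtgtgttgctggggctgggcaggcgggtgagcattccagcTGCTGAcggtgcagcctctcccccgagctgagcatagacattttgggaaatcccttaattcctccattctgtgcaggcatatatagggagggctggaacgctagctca
Crybb1: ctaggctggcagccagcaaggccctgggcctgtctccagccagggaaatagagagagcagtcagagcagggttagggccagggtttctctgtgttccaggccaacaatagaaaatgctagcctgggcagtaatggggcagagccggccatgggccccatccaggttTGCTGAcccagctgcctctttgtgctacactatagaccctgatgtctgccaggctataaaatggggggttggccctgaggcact
Cryba4: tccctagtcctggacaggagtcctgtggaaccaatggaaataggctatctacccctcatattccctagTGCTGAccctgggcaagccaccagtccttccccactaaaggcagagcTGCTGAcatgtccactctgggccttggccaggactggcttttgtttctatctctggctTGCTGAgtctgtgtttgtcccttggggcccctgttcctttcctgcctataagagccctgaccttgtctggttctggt
In the longer window to 50 bases after the start and on both strands, TGCTGA was in 11 of 18 lens and retina promoters (61.1%), in 20.3% of the promoters of genes on the arrays and in 21.7% of all promoters. *Cryga*, *Crygb* and *Crygd*, not printed, are neighbours too, and *Cryga* had a ratio of 2.79 from raised signals. In this window *Cryga* held 1 site, and *Crygb* and *Crygd* held 0. The printed promoters therefore do not stand for all crystallins. Among genes above the filter TGCTGA was in 54 of 184 promoters of higher genes (29.3%) and in 35 of 158 of lower genes (22.2%). GATA sites, spelled AGATAA, were in 5 of 12 erythroid promoters (41.7%) and in 26.6% of the promoters of lower genes, against 9.54% of genes on the arrays; those of higher genes held them in 7.61%. The GC box GGCGGG ran the other way, in 22.8% of the promoters of lower genes and 60.3% of those of higher genes, against 56.6% of genes on the arrays. These 4 motifs were chosen for print from 12 searched after their values were seen, GTTAAT overlaps the homeodomain core TTAATGA that was also searched, and no test was made.

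Transcription factors of the forebrain were higher. Of 22 measured, 8 were higher in both genotypes and none was lower, with a median of 1.02, or 0.93 from raised signals, and limma called 18 higher. *Six3*, needed for the anterior forebrain and the eye, had signals of 145 and 149 in whole embryos and 625 and 468 in heads, a log2 ratio of 1.88 ± 0.18. *Dlx1* and *Dlx2*, neighbouring homeobox genes of the basal forebrain and of the jaw primordia, had log2 ratios of 1.62 ± 0.11 and 1.35 ± 0.15; *Dlx1* had 396 and 380 in whole embryos and 1223 and 1160 in heads. *Tbr1*, a factor of the first cortical neurons, had 120 and 139 against 351 and 368, and *Fezf2*, a factor of deep cortical projection neurons, 267 and 219 against 617 and 540. Each of these had both head arrays above both whole-body arrays.

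*Pax6*, of the cortex and eye, and *Lhx2*, of the cortex, eye and nose, were higher by 1.12 ± 0.10 and 1.08 ± 0.09. *Bcl11b* (0.95 ± 0.09) and *Neurog2* (0.71 ± 0.09), which act in cortical neurons and their precursors, passed the limma test and stayed within the cutoff. Of 18 regulators of midbrain and hindbrain 0 passed the cutoff, beside 2.83% of all genes higher and 3.3% lower. Their median was 0.32, or 0.14 from raised signals. Above the filter lay 9 of the 18, and limma called 5 higher. The difference from the forebrain list was not tested. *Otx2*, of fore- and midbrain, had 783 and 836 in whole embryos and 1509 and 1511 in heads, a ratio of 0.90 ± 0.09, and *Zic1*, of the dorsal neural tube along the whole axis, one of 0.28 ± 0.08.

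Genes of neurons were higher in the head. Of 23 proneural and early neuron genes 6 passed the cutoff, all higher, 21 were called higher by limma and 1 lower, and the median was 0.89. *Neurod6*, a bHLH factor of young cortical neurons, had signals of 220 and 190 in whole embryos and 1297 and 944 in heads, a log2 ratio of 2.43 ± 0.13 (limma adjusted p = 2.33e-09). *Mapt*, which encodes the microtubule protein tau, had 594 and 693 against 2289 and 2098, and *Dcx*, which encodes doublecortin of migrating neurons, 2670 and 2550 against 6208 and 5515. A further *Dcx* probe set above the filter had 957 and 1013 against 1476 and 837, so that its stages overlapped. *Insm1*, a factor of newly born neurons, had a ratio of 1.31 ± 0.10.

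The bright stathmin genes *Stmn2* and *Stmn3* had ratios of 0.69 ± 0.08 and 0.58 ± 0.08, within the cutoff. *Neurod4*, of early neuron precursors, was the one that limma called lower, at -0.58. *Ina*, a neurofilament gene, lay nearest the cutoff on its inner side with 1.29 in the wild-type and 1.00 in the *Hand2*NC pair; *Reep1* lay just outside with 0.996 and 1.02.

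Genes of transmitter release and of inhibitory neurons were also higher. Of 16 synapse and transmitter genes 5 passed the cutoff, with a median of 0.93 and 14 called higher by limma. *Slc32a1*, the vesicular transporter for GABA, had signals of 96.6 and 116 in whole embryos and 419 and 414 in heads, a log2 ratio of 1.98 ± 0.20. *Gad1* and *Gad2*, the enzymes that make GABA, had 452 and 540 against 1403 and 1266, and 197 and 202 against 511 and 518. *Slc17a6*, the glutamate transporter gene of many neurons, had 0.74 ± 0.09. Thus the genes past the cutoff included the 3 GABA genes, and *Syt1* and *Snap25*, of vesicle fusion, at 1.28 ± 0.10 and 1.20 ± 0.11.

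Neural progenitor genes differed less: 2 of 14 passed the cutoff, *Sox1* (235 and 300 in whole embryos, 863 and 777 in heads) and *Pax6*, and the median was 0.56. *Sox2*, a general neural progenitor factor, had 0.77 ± 0.08, and the radial glia gene *Fabp7* 0.13 ± 0.09. The 15 highest genes also held, outside the lists, *L1cam*, an axonal adhesion molecule (498 and 446 against 1577 and 1734), *Trim36* (174 and 165 against 657 and 536) and *Rusc2* (102 and 87.8 against 383 and 383), each with no overlap between stages. *Aldoc*, the aldolase isoform of brain, had 287 and 335 in whole embryos and 1371 and 1242 in heads, and was the one gene of 20 in the glycolysis list past the cutoff. Without probe sets that may bind several transcripts, a dim probe set stands for it and its ratio turned to -1.04.

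*H3f3b*, which encodes the replacement histone H3.3 in nearly all cells, was the other gene among the highest, and its probe sets disagreed. Its probe set with a single symbol had signals of 117 and 101 in whole embryos and 651 and 606 in heads, a log2 ratio of 2.53 ± 0.17. The 5 probe sets that read it together with related genes had signals from 15183 to 21825 and ratios from -0.12 to 0.18. The ratio of 2.53 is that of 1 probe set, far less bright than the 5 shared ones, and which of them reads the gene better was not tested.

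In the jaw, the tissue whose patterning the study addressed, most listed genes differed little between E12.5 head and E11.5 whole-body. Of 24 genes of jaw mesenchyme and branchial arches 5 were higher and none lower, with a median of 0.32. They were *Dlx1* and *Dlx2* with *Dlx6*, which specifies the lower jaw (90.6 and 75.3 in whole embryos, 280 and 204 in heads), *Dlx3*, whose signals lay below 100 on every array, and *Lhx8*. *Lhx8*, of jaw mesenchyme, tooth and basal forebrain, had 432 and 369 against 1069 and 895, a ratio of 1.29 ± 0.11. *Twist1*, a factor of cranial mesenchyme and limb, had -0.29 ± 0.09, and *Prrx1* is given above.

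Of 14 palate and tooth genes 0 passed the cutoff, and the median was 0.32. Of 16 inner ear and nose genes 1 was higher, *Lhx2*, with a median of 0.60, or 0.16 from raised signals. Of 20 genes that the study had followed by in situ hybridisation, a list chosen on these samples, 2 were higher: *Lhx8* and *Dner*, a Notch ligand of neurons (1546 and 1543 against 3935 and 3431). *Pou3f3*, a factor of brain and jaw, had 1.02 and 0.97 and stopped just short. Both head arrays were above both whole-body arrays for these 3 genes.

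The lists of pituitary (11 genes, median 0.51), pigment cells (13, 0.24), cartilage (19, 0.36), bone (11, 0.60) and skin and epithelium (18, 0.13) had 0 genes past the cutoff in both genotypes. Over all genes, 2.83% were higher and 3.3% lower. Above the filter lay 6 pituitary, 6 pigment cell and 5 bone genes. From raised signals the medians of these lists were each 0.06, the difference between the array medians. Those of cartilage and of skin and epithelium were 0.25 and 0.13. *Col2a1*, the main collagen of cartilage, had 2043 and 2113 in whole embryos and 2584 and 2475 in heads, a ratio of 0.28 ± 0.08, and *Col1a2*, of bone and connective tissue, one of 0.12 ± 0.09. Skeletal muscle genes were lower in part: 3 of 25 passed the cutoff, the median was -0.61 and limma called 14 lower and 1 higher. *Ttn*, the giant sarcomere protein titin of heart and skeletal muscle, had 1330 and 1660 against 585 and 440, *Tnni1*, slow troponin I, 2066 and 1911 against 716 and 821, and *Myf5*, a determination factor of muscle, 192 and 421 against 81.2 and 177. For *Myf5* both head signals lay below both whole-body signals, but narrowly: the *Hand2*NC head signal of 177 was close to the wild-type whole-body signal of 192. The bright muscle genes *Mylpf* and *Myl1* were lower within the cutoff, at -0.75 ± 0.08 and -0.71 ± 0.09.

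**Figure D4:**
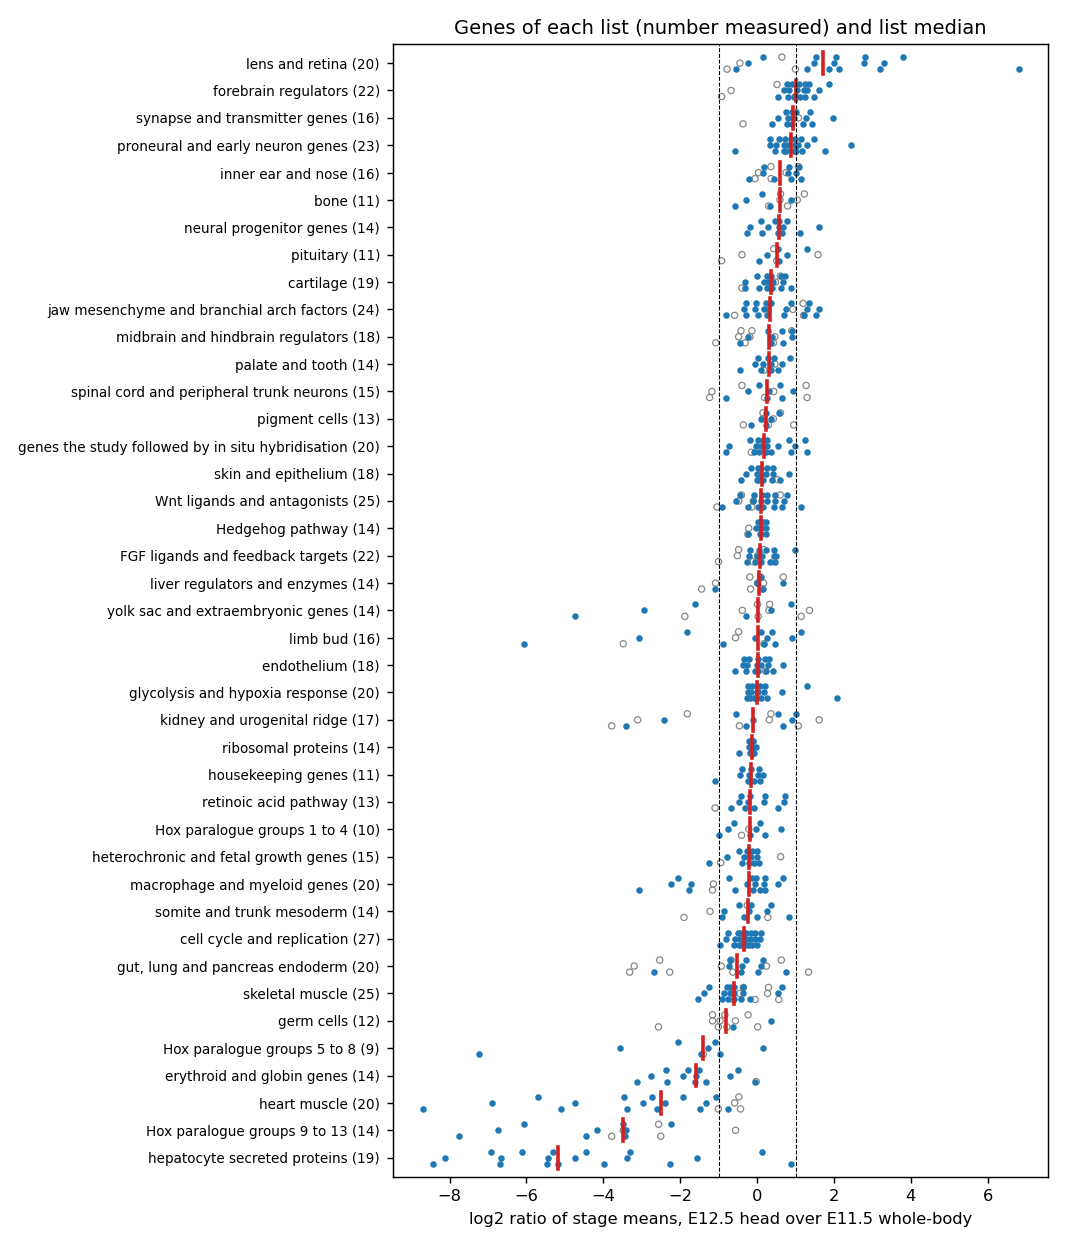
Log2 ratio of stage means (E12.5 head over E11.5 whole-body) for each measured gene of 41 lists, with the number measured in brackets; filled points are genes above the signal filter, open points genes below it, red bars the list medians and dashed lines 2-fold. Medians run from -5.17 for secreted liver proteins to 1.70 for lens and retina, and most lists have their median between -1 and 1.

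The list medians of general programmes shifted by less than 2-fold. Single genes went further, and the lowest housekeeping gene had a ratio of stage means of -1.09. Of 27 cell cycle and replication genes 0 passed the cutoff, 25 had a negative ratio and 18 were called lower by limma, with a median of -0.34; *Pcna*, the sliding clamp of DNA polymerase, had 17234 and 14598 in whole embryos and 12585 and 13221 in heads. Of 15 heterochronic and fetal growth genes 1 was lower: *Trim71*, a target of the let-7 microRNA (250 and 247 against 104 and 105, a ratio of -1.25 ± 0.23). Ribosomal protein genes (14 measured, median -0.14) and housekeeping genes (11, -0.16) had 0 past the cutoff, and *Actb* had 0.02 ± 0.10.

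Signalling pathways had 0 genes past the cutoff in both genotypes: 13 retinoic acid genes (median -0.19), 25 Wnt ligands and antagonists (0.11), 22 FGF ligands and feedback targets (0.08) and 14 Hedgehog genes (0.09). Over all genes, 2.83% were higher and 3.3% lower. *Crabp2*, a carrier of retinoic acid, was lower by limma within the cutoff (5803 and 5181 against 3854 and 4084), and *Sfrp2*, a secreted Wnt antagonist, was higher within it (2781 and 2370 against 3866 and 3291). *Ptch1*, the Hedgehog receptor and target, had 0.12 ± 0.08 and *Dusp6*, a feedback target of FGF, -0.04 ± 0.08.

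Some members were also neighbours on chromosomes. How often measured genes in general adjoin another gene called the same way was not computed. The shares below therefore have no comparison and describe these genes only. In the RefSeq gene order (GRCm38.p6), among the 18142 measured genes it holds, 46 of the 203 lower genes above the filter (22.7%) adjoined another lower gene, in 19 runs, and 24 of the 226 higher genes (10.6%) adjoined another higher gene, in 11 runs. The longest lower runs held 5 genes each, from *Hoxa7* to *Hoxa11os* and from *Hoxc10* to *Hoxc5*. Others were *Fgg*, *Fga* and *Fgb*, of fibrinogen, *Nppb* and *Nppa*, of the natriuretic peptides, *Myh6* and *Myh7*, of cardiac myosin, and *Ppbp* and *Pf4*. The longest higher runs were *Crygd*, *Crygb* and *Cryga*, of the gamma crystallins, and *Dlx1*, *Dlx1as* and *Dlx2*. Antisense genes such as *Dlx1as* and *Hoxa11os* were read by their own probe sets. Members of one family that resemble each other in sequence can share probes, and the families in these runs are not independent readings.

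Where a named gene past the cutoff had a further probe set above the filter, the probe sets ran the same way by the ratio of stage means. Of 89 such genes 20 had 1 or more, and all 28 of these probe sets had the direction of the one used, 20 of them past the cutoff in both genotypes and 0 past it the opposite way. The *H3f3b* probe sets shared with related genes are not part of this count. By genotype, the further *Dcx* probe set had 0.62 in the wild-type and -0.28 in the *Hand2*NC pair.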

How the data were processed

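Gene expression was measured on 4 arrays, labelled from 250 ng of total RNA each. The authors deposited linear-scale intensity values from MAS5, a name that the submitters' processing notes give with no version; their scaling target and detection calls are not given in the sources used here. As deposited, each array had a 2% trimmed mean of 498. From 45101 probe sets, 64 controls were left out, the arrays were brought to a trimmed mean of 500, and signals were put on the log2 scale. Names came from the platform annotation, checked through a RefSeq gene table (GRCm38.p6); 34945 had 1 symbol, 932 several and 9160 none, and those with 1 symbol gave 18193 genes. Each gene took the values of its brightest such probe set by the mean log2 over the 4 arrays. The study's text applies a 2-fold cutoff between genotypes within a stage and names no test or signal filter for it; here 2-fold was required of the stage difference in both genotypes.

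The test was limma 3.58.1 in R 4.3.3 (lmFit with stage and genotype, eBayes with an intensity trend, Benjamini-Hochberg over all genes). On simulated data for this comparison, with 200 of 18193 genes changed, limma called 100 of 100 genes planted at a log2 change of 2, 100 of 100 at -3, and 17 of 17993 unchanged genes. The simulated spread depended on signal alone, as the fit with a trend assumes, and changes were planted only in genes at or above the median signal. The simulation therefore cannot show how often real genes, each with its own spread, are called wrongly. With 1 array per condition, p-values measure only the spread between these arrays, and their number limits the precision. The members and the 42 gene lists, of whose 697 genes 625 were measured, were chosen with earlier results of these data known. Genes named are the 15 highest and 15 lowest by the ratio from raised signals, up to 5 genes past the cutoff and up to 2 bright genes within it from each list, *Hand2* and sex-linked genes; genes of the runs of neighbours, the genes nearest the cutoff, the heart regulators, *Arg1*, *Foxa3*, *Hbb-bh1*, *Neurod4* and the motifs were chosen after their values were seen. Alternatives were other scalings, filters, probe set rules, cutoffs and fits, single genotypes, and leaving out each array. Python 3.11.15, numpy 2.4.6 and pandas 2.3.3 were used.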

Additional observations from a re-analysis of the deposited data

Results flagged for a closer look

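Probe sets that carry no gene symbol, or several, were outside the comparisons of genes and also differed between E12.5 head and E11.5 whole-body. Of 2732 such probe sets that passed the filter on signal, 52 (1.9%) passed the 2-fold cutoff in both genotypes with higher signals in the head and 39 (1.43%) with lower ones, beside 1.93% and 1.73% of named genes. Neither share was above that of named genes, so the counts do not set these probe sets apart. They were noted only as data that the report did not use, and there are no control samples against which to set them.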

How the results depend on the processing

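No paired analysis was possible because each condition has 1 array; the genotype, the one factor that links arrays across stages, is a term of the test. The 514 higher and 600 lower genes were 226 and 203 with the brighter stage at or above the array median, 111 and 64 at the 75th percentile, 191 and 127 with dim signals raised to the median, 1526 and 1704 in the wild-type pair only, 1549 and 1408 in the *Hand2*NC pair only, 1432 and 1109 at 1.5-fold, and 74 and 200 at 4-fold. The 513 genes that ran in opposite directions became 0 under either filter and with raised signals. Limma's 2146 higher genes were 1426 with median centring, 953 with the mean over a gene's probe sets and 0 without the intensity trend (3031 at an unadjusted p below 0.05); its 1720 lower genes were 1660, 847 and 0. Leaving out each array in turn gave 1037 to 1401 higher and 652 to 1234 lower. The counts were 1071 and 652 without the E11.5 wild-type array, and 1266 and 842 without the E11.5 *Hand2*NC array. They were 1037 and 881 without the E12.5 wild-type array, and 1401 and 1234 without the E12.5 *Hand2*NC array. These fits hold no genotype term, because with it no residual degree of freedom would remain. All 4 arrays without that term gave 1969 higher and 1554 lower. The falls from 2146 and 1720 therefore mix the loss of an array with the loss of the term. They do not measure the weight of single arrays. With an array left out, the lone array of a stage is assumed to vary like the others. The forebrain median of 1.02 fell under the cutoff of 1 with median centring (0.96), quantile normalization (0.97), raised signals (0.93), the mean over probe sets (0.87), the wild-type pair (0.998) and the *Hand2*NC pair (0.97). Medians of the liver, heart, erythroid, posterior *Hox* and lens lists kept their direction and stayed past 1 under the alternatives run for them. *Aldoc* reversed to -1.04 without probe sets that may bind several transcripts, since a dim probe set then stands for it. With raised signals *Pdx1*, *Gata5*, *Isx*, *Hoxd11*, *Cdh16*, *Mael*, *Hoxd12*, *Nkx3-2*, *Mnx1* and *Rhox9* had 0.0643, the difference between the array medians, since all their signals lay below these. Depth is limited by signal: a head signal under the array median fixes no fold.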
